A study of Homo sapiens with 12 samples.

Results

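The 10 genes described here carry glucose carbon to lactate. They are SLC2A1, HK2, ALDOA, GAPDH, PGK1, ENO1, PKM, LDHA, LDHB and SLC16A3, taken by symbol and matched to Ensembl identifiers, and they are 10 of the 60107 genes in the count table. They were measured by 3′ RNA sequencing in 12 libraries of cells labeled U251P and U251T, with 3 vehicle and 3 carmofur libraries of each. U251 is an established human glioblastoma line, the sources do not say what the letters P and T stand for, and carmofur is an inhibitor of acid ceramidase. The series set out to relate expression changes under carmofur to cell migration. Cells of every group grew in phenol red-free DMEM/F12 with 17.5 mM glucose, 2.5 mM glutamine, 1% sodium pyruvate, 10% FBS, a B27-like supplement, epidermal growth factor and basic fibroblast growth factor, under 21% O2 and 5% CO2. After 16 h without serum they received full medium with carmofur or with DMSO, the vehicle, for 24 h, per the labels, which give no dose. The legend of the published sequencing figure puts the dose of carmofur at 5 µM. It has carmofur present in the serum-free hours as well. Total counts ran from 3295045 to 5263645 (median 5064504) in U251P vehicle libraries and from 4144841 to 6350873 (median 5952838) in U251P carmofur libraries. They ran from 566061 to 2817379 (median 1300727) in U251T vehicle libraries and from 383633 to 1078340 (median 969763) in U251T carmofur libraries. The labels number the replicates but do not call them separate cultures. The published methods state biological replicates for all experiments, and the sequencing is given there with n = 3. They do not say whether these libraries came from separate cultures, so that the p-values are read as measures of the spread between libraries. Levels are given as counts per 1000000 of a library's total gene counts (CPM), and because the kit yields a tag near the 3′ end of each transcript, they do not scale with transcript length.

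Glycolysis splits glucose into pyruvate in the cytosol and yields a small amount of ATP without oxygen. Lactate dehydrogenase then reduces pyruvate to lactate, which regenerates the NAD+ that the pathway consumes, and monocarboxylate transporters carry the lactate out of the cell. Many tumors, glioblastoma among them, make lactate even where oxygen is present, and the transcription factor HIF1 raises many genes of the pathway when oxygen is short.

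The label of U251T was checked against marker genes. Of the 4 genes of human MHC class I antigen presentation, which nearly every nucleated human cell expresses, 4 were called lower in U251T than in U251P vehicle libraries (edgeR, adjusted p under 0.05). Their summed level was 1911, 2063 and 2128 CPM in the U251P vehicle libraries and 2314, 1856 and 2338 CPM in the U251P carmofur libraries. In U251T it was 3.08, 2.84 and 7.07 CPM with vehicle and 9.28, 1.85 and 23.5 CPM with carmofur. B2M, the most abundant of them, thus nearly vanished, with 8015, 5655 and 9100 counts in U251P vehicle libraries against 1, 6 and 3 in U251T. SOX2, a stem cell factor of glioma cells, had 0 counts in the U251T vehicle libraries, against 813, 322 and 636 in U251P. NES, an intermediate filament of neural progenitors, had 2, 1 and 0 counts against 1904, 1512 and 2051. Of the 12 astroglial and glioma markers, 9 could be tested. The test called 3 of these higher and 5 lower in U251T. Their summed level was 4729, 5243 and 4203 CPM in U251P vehicle and 4817, 4638 and 4627 CPM in U251P carmofur libraries. It was 14395, 11904 and 14444 CPM in U251T vehicle and 10641, 8811 and 9486 CPM in U251T carmofur libraries. VIM, the filament gene of mesenchymal and glial cells, made up most of that sum in both lines. GFAP, the filament of astrocytes, had 0, 1 and 0 counts in U251P vehicle libraries and 102, 154 and 47 in U251T, while S100B had 0 counts in U251T vehicle libraries.

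Markers of other cell types were read in the same way. Of 19 such genes 9 could be tested between the lines, and 5 were called higher and 4 called lower in U251T. Their summed level was 242, 257 and 231 CPM in U251P vehicle and 245, 183 and 245 CPM in U251P carmofur libraries. In U251T it was 1355, 1504 and 1643 CPM with vehicle and 1979, 1988 and 2018 CPM with carmofur. Most of it came from COL1A1, a collagen chain of fibroblasts and other mesenchymal cells, at 1667, 4147 and 886 counts in U251T vehicle libraries against 23, 20 and 27 in U251P. The microglial marker AIF1, the endothelial marker VWF and the oligodendrocyte marker MOG had 0 counts in every library, but other genes of the list did not. CD68, of macrophages and microglia, had 17 counts in U251P and 53 in U251T vehicle libraries. PTPRC, of leukocytes, had 0 and 8, and MBP, of oligodendrocytes, had 49 and 0. Besides COL1A1, the genes called higher were CD68, DCN, PDGFRB and CDH1, and those called lower were KRT8, KRT18, SYT1 and MBP. Pseudogenes took 10.8 to 12.4% of counts in U251T and 0.272 to 0.307% in U251P, and the mitochondrial genome took 0.354 to 0.880% against 19.5 to 26.2%. The U251T libraries therefore lacked markers that U251P libraries of the same named line expressed, and U251T is used below as a label only. Whether their reads came from human cells of the labeled line was not tested, so that a low or 0 count in U251T, and any fold against U251P, describes counts assigned to the human gene and may not be the gene's expression. The part of these differences in the results on glycolysis genes was not tested. In these bulk libraries fewer cells of a type and less RNA per cell cannot be told apart.

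All 10 genes are protein coding in GENCODE release 29 (GRCh38). Those the results turn on are SLC2A1 at chr1:42925375-42959176, HK2 at chr2:74833981-74893359, LDHA at chr11:18394388-18408425, LDHB at chr12:21635342-21757857 and SLC16A3 at chr17:82228397-82261129. The others are ENO1 at chr1:8861000-8879250, GAPDH at chr12:6533927-6538374, PKM at chr15:72199029-72231822, ALDOA at chr16:30064164-30070457 and PGK1 at chrX:77910739-78129296. Their promoters were searched on both strands for ACGTG, a form of the core letters of the sites that HIF1 binds. Other forms, such as GCGTG, were not searched for. The search covered 35116 RefSeq windows on GRCh38.p14, each from 250 bases before to 50 bases after an annotated start, and 7518 of them (21.4%) held the letters. CACGTG, the E-box that MYC binds, contains ACGTG on both strands, and 2548 windows (7.26%) held it. All 10 genes matched the table with 18 windows, of which 9 windows of 6 genes (LDHA, GAPDH, HK2, PGK1, ALDOA and SLC16A3) held ACGTG. A match of letters is not a bound site, and a window without them says only that the letters are not there. The windows below are those of LDHA and PGK1, which hold ACGTG and moved in opposite directions between the lines, and of SLC2A1. SLC2A1 was higher with carmofur in U251T, and its window has no ACGTG. Each printed window also holds GCGTG, on its own or the opposite strand, which was outside the search and is not marked. Binding of HIF1 to any of these genes was not tested. Capitals mark ACGTG on either strand, and the bases run 5′ to 3′ along the gene's strand. They are the upstream LDHA window (chr11:18394313-18394612, plus strand), the PGK1 window (chrX:78103998-78104297, plus strand) and the SLC2A1 window (chr1:42958819-42959118, minus strand).
LDHA: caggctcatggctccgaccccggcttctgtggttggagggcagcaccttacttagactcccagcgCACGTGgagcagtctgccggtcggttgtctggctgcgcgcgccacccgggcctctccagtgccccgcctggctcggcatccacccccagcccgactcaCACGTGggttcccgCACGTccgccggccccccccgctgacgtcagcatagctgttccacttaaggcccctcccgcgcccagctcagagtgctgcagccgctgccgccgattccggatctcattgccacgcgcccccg
PGK1: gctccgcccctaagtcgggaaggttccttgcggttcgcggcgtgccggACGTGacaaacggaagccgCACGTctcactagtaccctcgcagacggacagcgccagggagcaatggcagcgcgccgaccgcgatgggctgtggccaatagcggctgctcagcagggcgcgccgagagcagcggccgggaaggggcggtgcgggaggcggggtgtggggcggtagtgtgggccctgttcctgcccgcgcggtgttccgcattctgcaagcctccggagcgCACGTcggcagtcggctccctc
SLC2A1: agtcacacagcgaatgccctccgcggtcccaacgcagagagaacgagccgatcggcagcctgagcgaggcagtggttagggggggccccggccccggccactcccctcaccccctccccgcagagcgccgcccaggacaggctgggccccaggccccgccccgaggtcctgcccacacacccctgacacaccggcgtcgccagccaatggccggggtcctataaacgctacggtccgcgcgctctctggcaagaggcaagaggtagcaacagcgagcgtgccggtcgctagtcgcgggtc

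In U251P the pathway was led by its middle and lower enzymes, and LDHA was the lowest gene of the 10. The order with vehicle was GAPDH at 3365 ± 367 CPM (mean ± SD, n = 3 here and below), ENO1 at 2371 ± 146 CPM, PKM at 1572 ± 160 CPM, LDHB at 550.3 ± 51.8 CPM, ALDOA at 548 ± 60.9 CPM, PGK1 at 464 ± 59.7 CPM, SLC16A3 at 354 ± 44.8 CPM, SLC2A1 at 240.3 ± 59.2 CPM, HK2 at 13.8 ± 6.22 CPM and LDHA at 6.63 ± 1.19 CPM. Neighbors overlapped between LDHB and ALDOA, ALDOA and PGK1, and PGK1 and SLC16A3, and the carmofur libraries had the same order and overlaps. In U251T vehicle libraries ENO1 (461 ± 18.8 CPM) and LDHA (409 ± 34.9 CPM) led. GAPDH at 175 ± 37.8 CPM, PKM at 152 ± 21.2 CPM and LDHB at 137 ± 15.8 CPM came next and overlapped. ALDOA at 73.9 ± 21.4 CPM, SLC2A1 at 60.6 ± 14.6 CPM, HK2 at 41.3 ± 10.9 CPM and PGK1 at 34.8 ± 4.31 CPM each overlapped its neighbor, and SLC16A3 was last with 1 count in 3 libraries. With carmofur LDHA (519 ± 95.7 CPM) and ENO1 (371 ± 43.0 CPM) overlapped at the top of the U251T order, and SLC2A1 (143 ± 25.03 CPM) stood apart from ALDOA (85.5 ± 8.30 CPM). Summed over the 10 genes, the level was 8738, 10023 and 9695 CPM in U251P vehicle libraries and 1553, 1649 and 1433 CPM in U251T vehicle libraries.

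**Figure D1:**
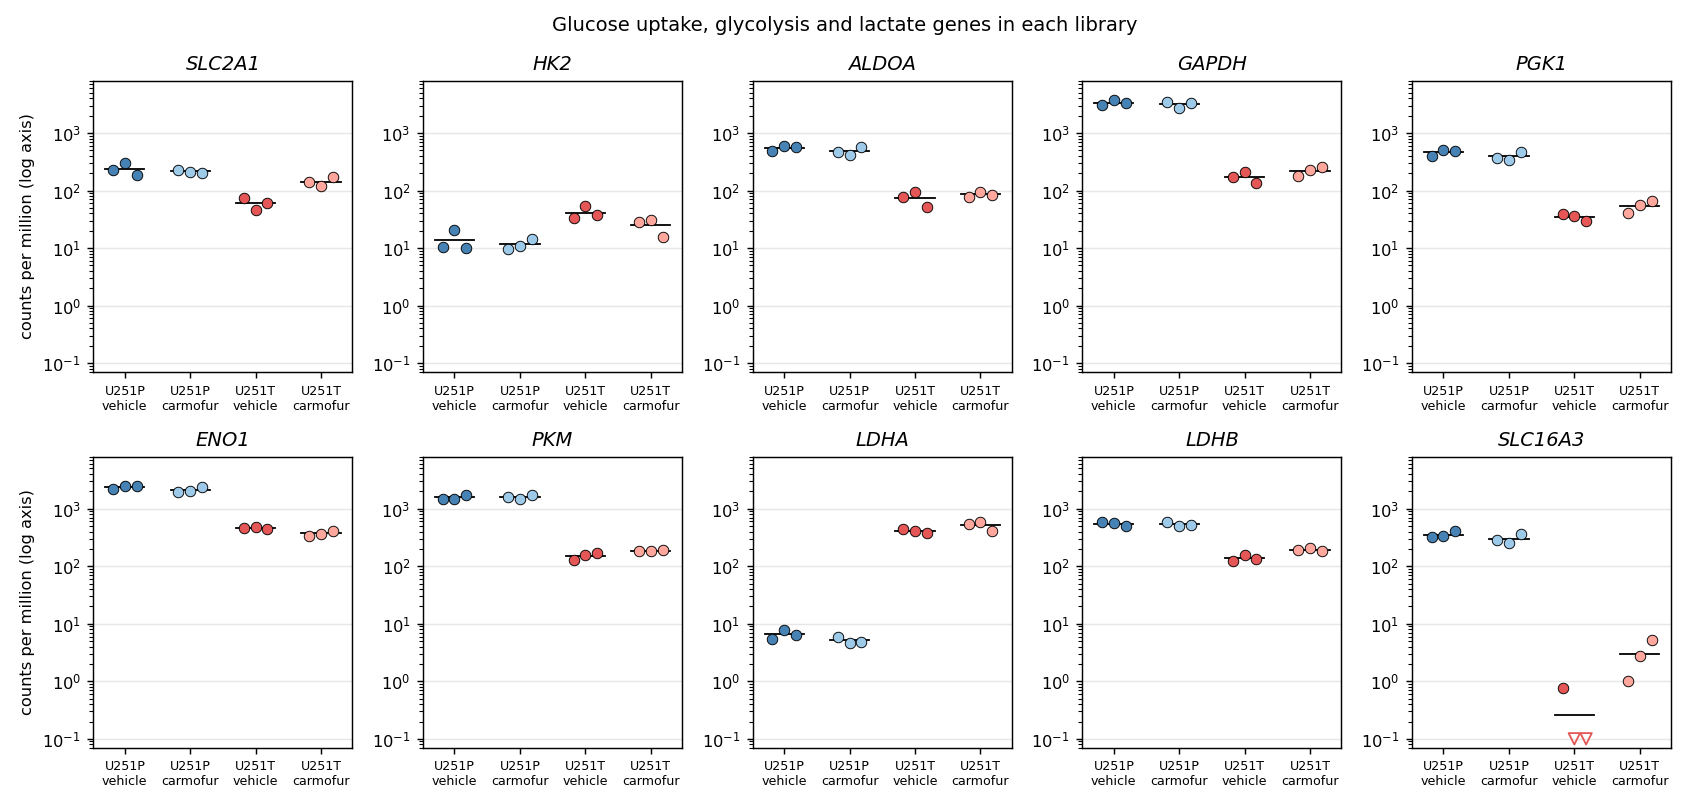
Level of each of the 10 genes in each library, in CPM on a log axis, where points are libraries, short lines are group means and open triangles mark 0 counts. With vehicle LDHA has a mean of 6.63 CPM in U251P and 409 CPM in U251T, and SLC16A3 is at or near 0 in U251T.

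The comparison of the lines in vehicle asked how the pathway differed before any drug. Counts of each of the 10 genes differed, as did those of most genes tested. By the edgeR quasi-likelihood test, with an adjusted p under 0.05 called, 10 of the 10 genes were called, against 86.9% of all 12047 genes tested. LDHA and HK2 were higher in U251T (2 of 10, against 39.3% of all genes), and the other 8 were lower (8 of 10, against 47.6%). The median log2 fold change was -2.62 over the 10 genes and -0.33 over all genes tested. Since a difference was called for most genes, a count of 10 of 10 lies near the background, and the description rests on sizes and directions.

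SLC2A1 encodes GLUT1, the transporter that brings glucose into the cell. It stood at 230.2, 304 and 187 CPM in U251P vehicle libraries and at 74.6, 45.4 and 61.8 CPM in U251T. Each U251P library was above each U251T library, and the level was 4.16-fold lower in U251T (log2 -2.06, SE 0.177, adjusted p 1.1e-11). HK2, a hexokinase, which traps glucose in the cell as its phosphate, went the other way. It stood at 10.5, 20.9 and 9.88 CPM in U251P and at 33.1, 53.6 and 37.1 CPM in U251T, with no overlap, which was 3.19-fold higher (log2 1.67, SE 0.274, adjusted p 2.0e-06). HK1, another hexokinase outside the 10 genes, was more abundant, with a mean of 160 CPM in U251P and 209 CPM in U251T vehicle libraries. Its libraries overlapped between the lines.

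The enzymes from aldolase to pyruvate kinase were all lower in U251T, by unequal amounts and with no overlap between the lines. ALDOA, which splits fructose bisphosphate, was 7.12-fold lower and GAPDH, which oxidizes glyceraldehyde phosphate with NAD+, was 19.1-fold lower. PGK1, the first enzyme of the pathway to make ATP, was at 399, 516 and 479 CPM in U251P and at 38.4, 35.8 and 30.0 CPM in U251T. That was a 13.3-fold difference (log2 -3.73, SE 0.173, adjusted p 7.4e-18). ENO1, which makes phosphoenolpyruvate, was 5.28-fold lower, and PKM, which turns it into pyruvate, was 10.7-fold lower. The log2 fold changes were -2.40 for ENO1 (SE 0.154), -2.83 for ALDOA (SE 0.177), -3.42 for PKM (SE 0.171) and -4.26 for GAPDH (SE 0.188), with adjusted p from 2.3e-18 to 1.4e-14.

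The subunits of lactate dehydrogenase exchanged rank. LDHA, whose subunit favors the making of lactate, was at 5.53, 7.89 and 6.46 CPM in U251P vehicle libraries and at 440.0, 416 and 371 CPM in U251T. Every U251T library was far above every U251P library, a 60.7-fold difference (log2 5.92, SE 0.186, adjusted p 8.5e-22). LDHB, whose subunit favors the return of lactate to pyruvate, was at 586, 574 and 491 CPM in U251P and at 124, 154 and 132 CPM in U251T. It was 4.06-fold lower (log2 -2.02, SE 0.149, adjusted p 3.4e-13), again with no overlap. LDHA made up 0.935%, 1.36% and 1.30% of the counts of the pair in the U251P vehicle libraries, with exact 95% intervals between 0.622 and 1.98%. In the U251T vehicle libraries its share was 78.0%, 72.9% and 73.7%, with intervals between 68.2 and 81.0%. With carmofur the shares were 1.00%, 0.924% and 0.925% in U251P and 74.3%, 73.8% and 69.3% in U251T, each inside the range of the vehicle intervals of its line. Intervals and floors given here cover counting error only.

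**Figure D2:**
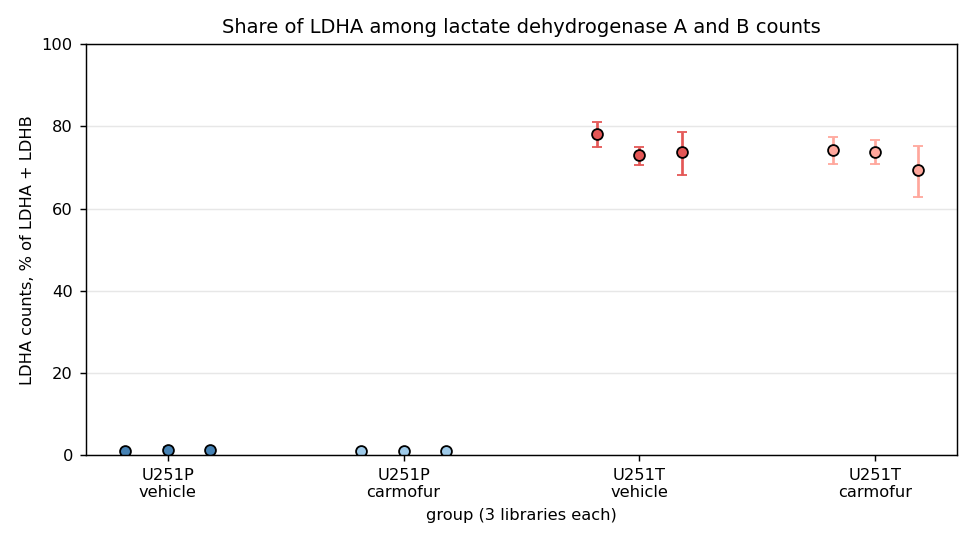
LDHA as a percentage of the summed LDHA and LDHB counts in each of the 12 libraries, with exact 95% binomial intervals as bars. U251P libraries lie between 0.924 and 1.36% and U251T libraries between 69.3 and 78.04%.

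SLC16A3 encodes MCT4, a transporter that exports lactate. It was at 317, 341 and 403 CPM in U251P vehicle libraries, 4849 counts in all, and had 1, 0 and 0 counts in U251T. Counts of the gene were thus plentiful in the U251P libraries and at or near 0 in the U251T libraries, which, with the origin of the U251T reads not tested, does not show that the gene was silent there. The ratio of U251P to U251T was 1667, with an exact 95% counting interval from 299 to 65867. In U251T carmofur libraries it had 1, 3 and 2 counts, too few to compare.

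The size of these differences depended on which genes set the scale. With at least 10 counts required in every library, 4823 genes were tested, the median over all genes moved from -0.33 to 0.01, and the log2 fold changes of the 9 genes tested moved by -0.63 to -0.64. Without a filter 25294 genes were tested, the median over all genes was -1.54, and those of the 9 genes moved by -0.36 to -0.37. With the stricter filter SLC16A3 went untested and the other 9 kept their calls and directions, with HK2 at 1.03 (adjusted p over the alternatives from 4.8e-08 to 0.00426).

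Neighboring pathways were given by fixed lists. Of 12 tested genes among 14 other glycolysis enzymes, 10 were called lower and 2 called higher in U251T (median -3.25). ADPGK, an ADP-dependent glucokinase, had 0 counts in the U251T vehicle libraries (at least 50.9-fold lower, from a floor of 3 counts over the group), PGAM1, a phosphoglycerate mutase, also had 0 there (at least 12.95-fold lower), and TPI1, triose phosphate isomerase, had a log2 fold change of -5.07. ENO3, the muscle enolase, was higher at 2.60, and HK1, the most widely expressed hexokinase, was called higher at 0.38 although its libraries overlapped and DESeq2 did not call it (this gene was named after its values were seen). Of 10 genes of glucose and lactate transport and glycolytic regulation 10 had a value below 0 and 9 were called lower (median -2.66). The 7 pentose phosphate genes were all lower (median -3.88), among them PGD, phosphogluconate dehydrogenase, at -5.55.

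Further downstream the directions were mixed. Of 10 tested genes of pyruvate entry into mitochondria 4 were called higher and 6 called lower (median -0.76), with PDHB (3.43) and DLAT (2.40), parts of the pyruvate dehydrogenase complex, higher and PDHX (-2.69), another part of it, lower. Of 15 citric acid cycle genes 9 had a value above 0 and 6 below, with 6 called higher and 6 called lower (median 0.08). CS, citrate synthase, was higher at 2.34, and IDH3A, a subunit of isocitrate dehydrogenase, lower at -4.76, while SDHC, a subunit of succinate dehydrogenase, had 0 counts in the U251T vehicle libraries (at least 101-fold lower). The list of HIF1 targets outside glycolysis also holds HIF1A, which encodes a subunit of HIF1 itself, and counts for the list include it. Of its 10 tested genes 3 were called higher and 5 called lower (median -0.41). HIF1A, among the 3, was at 1.81. BNIP3, a mitophagy receptor, was at -5.01, or -5.84 without U251T vehicle replicate 2. DESeq2 called 2 higher, HIF1A among them, and 6 lower. Of the 3 called higher by edgeR, EGLN1, an oxygen-sensing hydroxylase, had 0.50 and lost its call under 11 of 15 alternatives, with adjusted p up to 0.568. These included leaving out U251P vehicle replicate 1 (0.149), 2 (0.0543) or 3 (0.135) and U251T vehicle replicate 2 (0.182) or 3 (0.1805). KDM3A, a histone demethylase, at 0.98, lost its call with at least 10 counts in every library (0.152). Of the 10 reference genes 4 were called higher and 5 called lower (median -0.15). They ran from PPIA at -3.31 to PGM2, itself an enzyme of sugar metabolism, at 1.47.

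**Figure D3:**
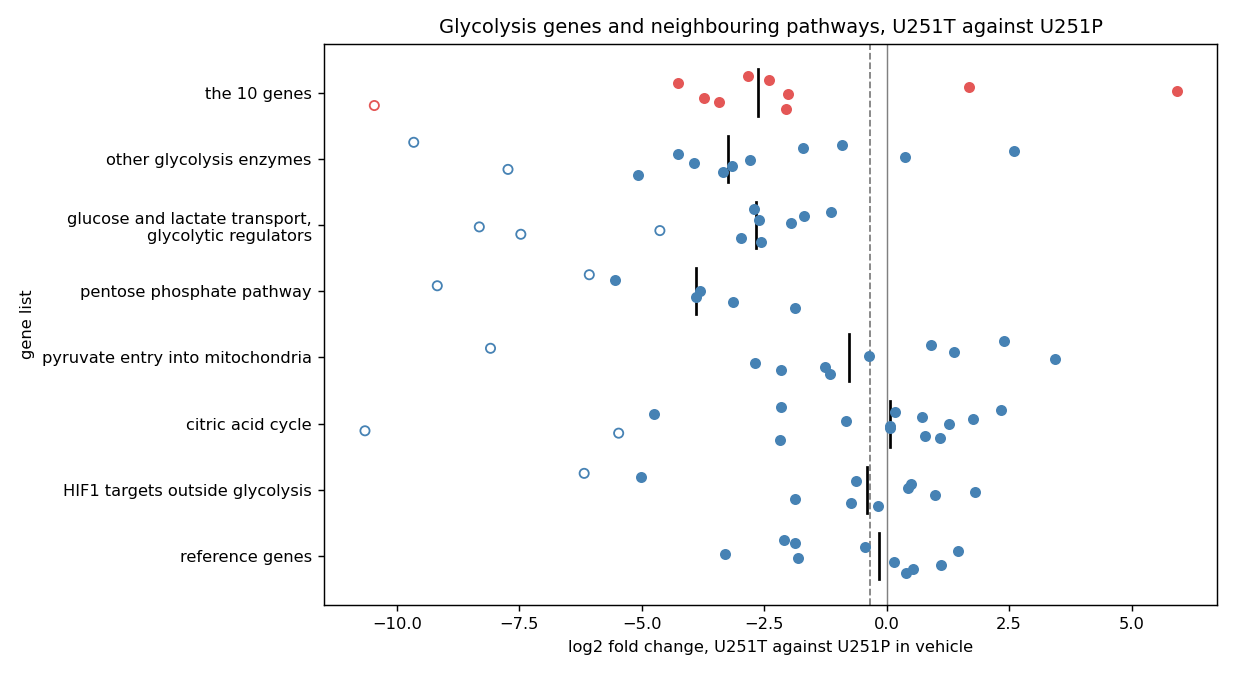
Log2 fold change of U251T against U251P in vehicle for each tested gene, by list, where open circles have 0 to 3 counts in a group, short bars are list medians and the dashed line is the median of all genes tested. The 10 genes have a median of -2.62, the pentose phosphate genes -3.88 and the citric acid cycle genes 0.08.

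Near-identical copies and overlapping genes limited how well counts could be placed. Windows of 75 bases, the read length, from the last 400 bases of each transcript were looked up in the transcripts of other genes. For ALDOA 489 of 489 windows (100%) also occurred in AC093512.2, whose identifier is not in the table. The share was 9.82% for LDHB (in AC010197.2), 1.02% for LDHA (in LDHAP5) and 0% for the other 7 genes. Pseudogenes of the 10 genes held 0.0136 to 0.0387% of the joint counts in U251P libraries and 6.61 to 9.08% in U251T libraries. In U251T the largest were GAPDHP64 with 279 counts and LDHAP1 with 164, both at 0 in U251P. PGK1 overlaps ATP7A on the same strand (587 counts in the 12 libraries) and SLC16A3 overlaps CSNK1D on the opposite strand (2847 counts), and whether strand was used in counting is not stated.

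Carmofur in U251P was compared with vehicle to see whether the drug moved the pathway in that line. No gene of the 10 passed the edgeR test, and the levels with and without drug lay close together. The count was 0 of 10, against 0% of the 11426 genes tested, with 402 of these at an unadjusted p under 0.05 and 0 called by DESeq2. None of the 10 had groups of libraries that did not overlap (0 of 10, against 8.33% of all genes), and 0 of the 10 had an unadjusted p under 0.05. SLC2A1 was at 224, 214 and 205 CPM with carmofur, within the 187 to 304 CPM of the vehicle libraries. GAPDH was at 3396, 2724 and 3328 CPM against 3020, 3750 and 3326 CPM. These groups overlapped, as did those of every other gene of the 10. Log2 fold changes ran from -0.31 for LDHA (SE 0.284) to 0.06 for PKM (SE 0.105), 9 of 10 were below 0, and the adjusted p was 0.999 for each. The median was -0.14, against -0.00 over all genes tested. These p-values do not show that the levels were equal. Leaving out 1 library turned the sign of 4 genes, none of them called. Without vehicle replicate 2, HK2 was at 0.19, SLC2A1 at 0.06, LDHB at 0.01 and GAPDH at 0.00, and LDHB or GAPDH also reached up to 0.03 without vehicle replicate 1 or carmofur replicates 2 or 3.

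The neighboring lists likewise held 0 called genes in U251P. The medians were 0.01 for the other glycolysis enzymes, with PFKM, a phosphofructokinase, at 0.32, and -0.13 for transport and regulators, with SLC16A7, a high-affinity monocarboxylate transporter, at 0.36. The pentose phosphate list had a median of -0.05, the citric acid cycle -0.01, and pyruvate entry -0.02, with the phosphatase PDP1 at -0.34. The HIF1 list had the lowest median of these lists, at -0.31, with 10 of 11 genes below 0, HIF1A (-0.30) among them. For reference genes it was -0.01, with the elongation factor EEF1A1 at -0.22. Each gene named here had an adjusted p of 0.999.

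The U251P libraries differed among themselves in a way that crossed the treatment. ENO1, PGK1, ALDOA and SLC16A3 were each higher in vehicle replicates 2 and 3 and carmofur replicate 3 than in vehicle replicate 1 and carmofur replicates 1 and 2. For ENO1 the former were at 2438, 2472 and 2420 CPM and the latter at 2204, 1980 and 2044 CPM. VEGFA, the angiogenic factor and HIF1 target, split the same way, at 307, 216 and 224 CPM against 98.7, 93.2 and 89.7 CPM. So did 9 of the 11 tested genes of the HIF1 list, VEGFA and HIF1A included, while ADM and EGLN1 did not. Of all 11426 genes tested 866 (7.58%) followed this split and 876 the reverse. VEGFA, ADM, EGLN1 and the split itself were chosen after the values were seen, and no test was made of it. Since the split was drawn from these values, the share of a list that follows it is a description and not a test. The highest library stood above the lowest 1.25-fold for ENO1, 1.42-fold for ALDOA, 1.49-fold for PGK1, 1.56-fold for SLC16A3 and 3.42-fold for VEGFA. LDHA, LDHB, PKM, GAPDH, SLC2A1 and HK2 did not follow it. Since 2 of the higher libraries had vehicle and 1 had carmofur, the split moved with the comparison of treatments, and its part in the values below 0 was not tested.

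**Figure D4:**
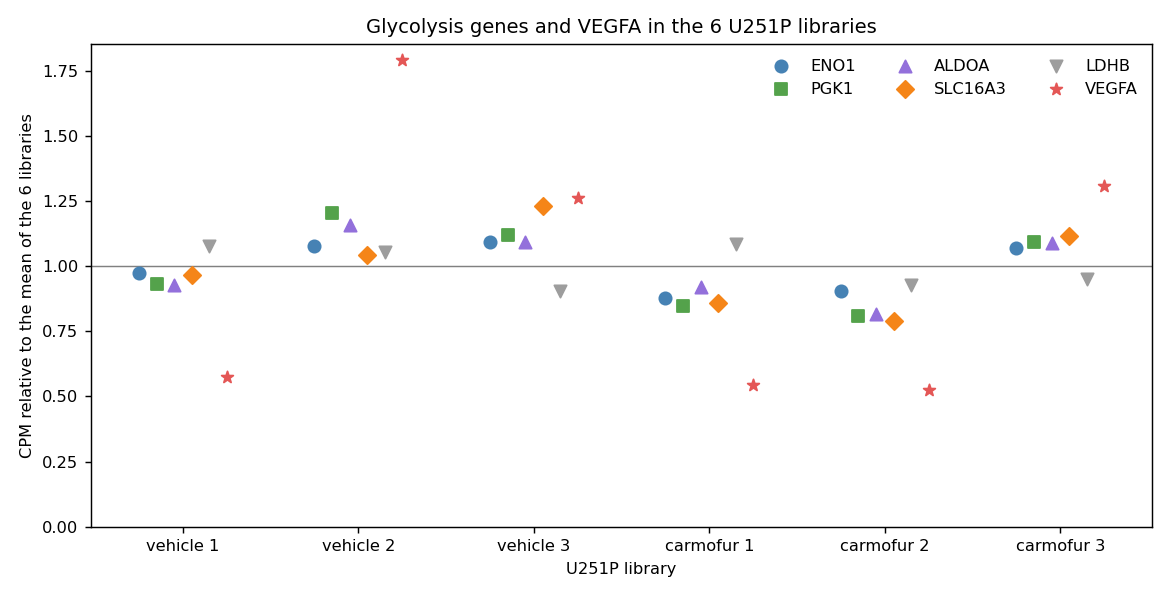
Level of 6 genes in each U251P library relative to the mean of the 6 U251P libraries, where each symbol is a gene and the horizontal line is that mean. ENO1, PGK1, ALDOA, SLC16A3 and VEGFA are higher in vehicle replicates 2 and 3 and carmofur replicate 3, and LDHB is not. This grouping of libraries was chosen after the values were seen.

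Carmofur in U251T came with more glucose transporter transcript. SLC2A1 was at 74.6, 45.4 and 61.8 CPM with vehicle and at 140, 120 and 169 CPM with carmofur. Every carmofur library was above every vehicle library, and the level was 2.35-fold higher (log2 1.24, SE 0.208, adjusted p 0.000417). LDHB rose from 124, 154 and 132 CPM to 190, 211 and 182 CPM, again with no overlap, a 1.41-fold difference (log2 0.49, SE 0.163, adjusted p 0.0452). These were the called genes, 2 of the 9 that could be tested, against 17.1% of 7204 genes (11.1% of 7551 without carmofur replicate 1), and both were higher, against 8.88% of genes called higher. SLC16A3 had too few counts to pass the filter.

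The other genes were not called in the main fit. With a replicate block in the edgeR fit LDHA (adjusted p 0.00291), ENO1 (0.00385) and HK2 (0.0467) were called, where 28.8% of all genes were called. The labels do not say that libraries of one number belong together. PGK1, at 38.4, 35.8 and 30.0 CPM with vehicle and 40.2, 55.6 and 65.2 CPM with carmofur, had a log2 fold change of 0.54 (adjusted p 0.1503). LDHA was at 549, 596 and 412 CPM against 440.0, 416 and 371 CPM (0.35, adjusted p 0.126), with overlapping groups. HK2, at 28.9, 30.6 and 15.6 CPM against 33.1, 53.6 and 37.1 CPM, had a value of -0.69 (adjusted p 0.127). For the rest the log2 fold changes were 0.29 for PKM, 0.27 for GAPDH, 0.14 for ALDOA and -0.34 for ENO1, with adjusted p from 0.102 to 0.743. The value of ALDOA turned to -0.04 without vehicle replicate 3. In 6 of the 9 the groups of libraries did not overlap, against 32.9% of all genes. These were SLC2A1, LDHB, PKM and PGK1, with carmofur higher, and ENO1 and HK2, with carmofur lower. The median over the 9 was 0.29, against 0.01 over all genes tested.

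The call of SLC2A1 held under each alternative run, at log2 1.01 to 1.42 with adjusted p up to 0.00431. That of LDHB sat at the threshold, with adjusted p from 0.0019 to 0.207. It was lost with DESeq2 (0.121), without a filter (0.193), with at least 10 counts in every library (0.0534) and with all 12 libraries in a single fit (0.136). It was also lost without vehicle replicate 1 (0.207) or 3 (0.111) and without carmofur replicate 1 (0.101), 2 (0.187) or 3 (0.0711). Without carmofur replicate 3 LDHA was called instead (0.48, adjusted p 0.0485, in a range from 0.00291 to 0.452). Markers moved as well in U251T. Of the 6 astroglial and glioma markers tested 5 were called, with CRYAB, a small heat shock protein, at 96, 206 and 111 counts in vehicle libraries against 553, 855 and 262 under the drug (log2 2.72), SOX9 at 0.55, CD44 at 0.39 (not called by DESeq2), VIM at -0.67 and GFAP at -0.96, and COL1A1 among the other cell types at 0.40. Their part in the result was not tested.

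Among 10 genes of glucose and lactate transport and glycolytic regulation 4 could be tested with carmofur in U251T, of which edgeR called 2 higher and 1 lower. TXNIP, a thioredoxin-binding protein that restrains glucose uptake, was at 24.6, 13.5 and 24.7 CPM with vehicle and at 72.2, 49.1 and 96.4 CPM with carmofur, with no overlap (log2 1.82, SE 0.300, adjusted p 0.000325). PFKFB3, which makes the activator of phosphofructokinase, was at 17.7, 10.3 and 31.8 CPM against 32.0, 43.6 and 44.3 CPM (1.20, adjusted p 0.0257). SLC16A1, the lactate transporter MCT1, was lower, at 131, 155 and 129 CPM against 73.2, 105 and 88.6 CPM (-0.66, adjusted p 0.0242). BSG, a chaperone of these transporters, was not called (0.69, adjusted p 0.277, named after its values were seen). PFKFB3 lost its call with DESeq2 (adjusted p 0.0925), without vehicle replicate 1 (0.0698) or 2 (0.129) and without carmofur replicate 2 (0.0869) or 3 (0.0792). SLC16A1 lost its call without vehicle replicate 2 (0.0883) and without carmofur replicate 1 (0.157) or 3 (0.0684). The lowest adjusted p over the alternatives was 0.0004 for PFKFB3 and 0.000348 for SLC16A1, while TXNIP was called under each.

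The HIF1 list, HIF1A included, gave 2 genes called higher of 8 tested. NDRG1, a stress-responsive gene, was at 13.8, 17.0 and 8.83 CPM against 49.5, 54.7 and 67.8 CPM (log2 1.93, adjusted p 0.000131). BNIP3L, a receptor of mitophagy, was at 36.9, 23.8 and 40.6 CPM against 104, 77.9 and 117 CPM (1.61, adjusted p 0.000138). In both, each carmofur library was above each vehicle library. TKT, the transketolase of the pentose phosphate pathway, was lower (-0.81, adjusted p 0.00786, 1 of 2 tested). MPC2, a subunit of the mitochondrial pyruvate carrier, was higher (0.57, adjusted p 0.0274, 1 of 7 tested) but lost its call with DESeq2 (0.0804), without a filter (0.1298), in a single fit (0.0622), without vehicle replicate 1 (0.129) and without carmofur replicate 2 (0.0904) or 3 (0.0845), in a range from 0.00184. By edgeR 0 of 5 other glycolysis enzymes and 0 of 11 citric acid cycle genes were called, with 1 and 0 at an unadjusted p under 0.05, and DESeq2 called 0 in both lists.

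**Figure D5:**
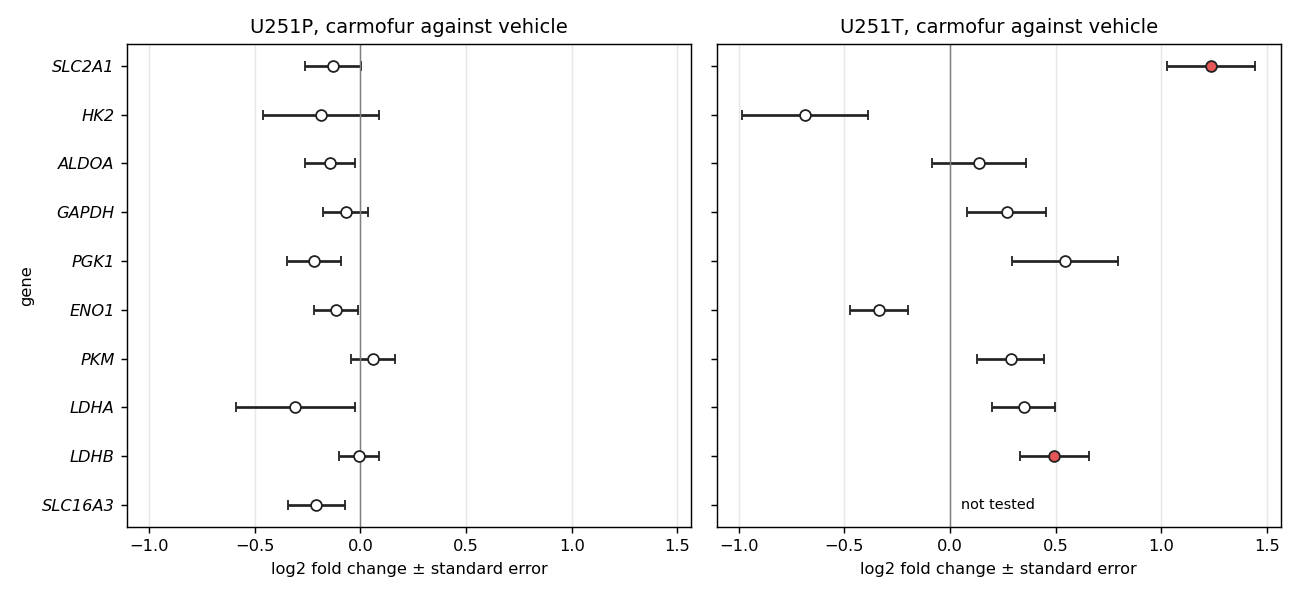
Log2 fold change of carmofur against vehicle for each of the 10 genes in U251P and in U251T, with bars for the standard error and filled red points for an edgeR adjusted p under 0.05. SLC2A1 (1.24) and LDHB (0.49) are called in U251T, and none is called in U251P.

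Whether the carmofur effect differed between the lines was tested as an interaction over all 12 libraries. The response of SLC2A1 was higher in U251T than in U251P by 1.29 on the log2 scale (SE 0.259, adjusted p 0.00132), and it was called under each alternative, at 1.10 to 1.49 with adjusted p up to 0.0102. It was 1 of 10 genes called, against 4.28% of the 13070 genes tested. The share of all genes was 2.69% of 13634 without U251T carmofur replicate 1 and 14.6% of 4048 with at least 10 counts in every library. The split of all calls moved with the scaling, from 235 higher and 325 lower to 333 higher and 297 lower with total counts only. LDHB, called in U251T alone, was not called here (0.43, adjusted p 0.409, range 0.0701 to 0.685), so that its effect was not shown to differ. PGK1 had a difference of 0.66 (adjusted p 0.244), and SLC16A3, with 1 and 6 counts in the U251T groups, had an adjusted p of 0.127. The median over the 10 genes was 0.34, against -0.02 over all genes.

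Among transport and regulators 3 of 10 were called in the interaction, all higher in U251T. They were TXNIP (1.93, adjusted p 0.00131), PFKFB3 (1.31, adjusted p 0.0198) and PFKFB4, an isoenzyme of PFKFB3 (2.09, adjusted p 0.0359). Both calls hung on single libraries. PFKFB3 lost its call without U251P vehicle replicate 2 (adjusted p 0.0547) or carmofur replicate 1 (0.0514) or 2 (0.0565), and without U251T vehicle replicate 2 (0.194) or carmofur replicate 2 (0.101). PFKFB4 lost its call without U251P vehicle replicate 2 (0.0594) or 3 (0.0781) or carmofur replicate 1 (0.0727) or 2 (0.0603), and without U251T vehicle replicate 1 (0.106) or carmofur replicate 1 (0.123) or 3 (0.144). The lowest adjusted p over the alternatives were 0.00337 for PFKFB3 and 0.0104 for PFKFB4. Of 11 tested genes of the HIF1 list BNIP3L (1.90, adjusted p 0.000262) and NDRG1 (2.24, adjusted p 0.000387) were called. TXNIP, PFKFB4, BNIP3L and NDRG1, 4 of these 5 genes, followed the split of the U251P libraries described above. That split was chosen after the values were seen, and its part in their differences was not tested.

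For each of the 10 genes the gene outside all lists with the most similar pattern was found among 5791 genes, by the root mean square difference of centered log2 CPM over the 12 libraries. For SLC2A1 it was PALLD, an actin-binding protein (0.193), and for HK2 BLOC1S5 (0.286). For ALDOA it was UHMK1 (0.218), for GAPDH the peroxiredoxin PRDX1 (0.243) and for ENO1 AHCYL1 (0.137). PGK1 and PKM were nearest to ribosomal protein genes, RPS2 (0.240) and RPS28 (0.183). LDHB was nearest to NDUFA4, a component of the respiratory chain (0.141), and LDHA to AL122020.1 (0.272). The largest distance was that of SLC16A3, which was nearest to the mitochondrial gene MT-ND4 (0.519).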

How the data were processed

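RNA of 12 libraries was sequenced by the authors with the QuantSeq 3′ FWD kit in single-end reads of 75 bases and processed in the BlueBee pipeline. The deposited table holds whole-number counts per gene, without normalization. The build is hg38 in the submitters' processing notes, and the aligner, annotation release, counting tool and use of strand were not given in the sources used here. Counts were tested with the quasi-likelihood test of edgeR 4.0.16 in R 4.3.3, with TMM scaling, filterByExpr and Benjamini-Hochberg adjustment over all genes tested at 0.05, in the 6 libraries of each comparison or, for the interaction, in all 12. Alternatives were DESeq2 1.42.0, upper-quartile scaling, total counts, no filter, at least 10 counts in every library, a replicate block, an adjusted p under 0.1, a single fit, pseudogenes added to their parent genes and each library left out. Tables and figures used Python 3.11.15, pandas 2.3.3, scipy 1.17.1 and matplotlib 3.10.9. The 10 genes and the lists were chosen with earlier results of these data known. In the comparison of the lines, list genes could be named if they were among the 3 with the largest called change in each direction without overlap. For carmofur, each called list gene could be named, or the list gene with the smallest p where none was called.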

Additional observations from a re-analysis of the deposited data

Results flagged for a closer look

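The test of a difference between the lines in the carmofur effect (the interaction, by edgeR) picked out 6 of the genes described. SLC2A1 was among them, with a difference of 1.29 on the log2 scale, higher in U251T. For TXNIP the difference was 1.93, for PFKFB3 1.31 and for PFKFB4 2.09. For BNIP3L it was 1.90 and for NDRG1 2.24. Leaving out a single library ended the call of PFKFB3 in 5 cases and of PFKFB4 in 7. Causes of these differences were not tested.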

How the results depend on the processing

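In the comparison of the lines each of the 10 genes kept its direction and call under every alternative in which it could be tested, and SLC16A3 could not be tested with at least 10 counts in every library. That filter took EGLN1, a gene of the HIF1 list whose call was lost under 10 other alternatives, to -0.14 (not called, adjusted p 0.564) and KDM3A to 0.34, shifts of -0.64 for each, and the 9 tested genes of the 10 shifted by -0.63 to -0.64. In U251P 0 of the 10 genes were called under any alternative, with 19 genes of the whole table called without a filter, 1 with the replicate block and 1 without carmofur replicate 3. In U251T the number called, 2 of 9 (17.1% of all genes), became 1 with DESeq2, without a filter, with at least 10 counts in every library and in a single fit of all 12 libraries. The shares of all genes called were then 4.89, 7.22, 20.4 and 10%. It became 5 with the replicate block, which added LDHA, ENO1 and HK2, although the labels do not say that libraries of one number belong together. The block raised the share of all genes called to 28.8%. Leaving out each library in turn gave 1 to 2 of the 9 genes, against 11.1 to 15.6% of all genes. The cause of these changes was not tested. In the interaction SLC2A1 alone of the 10 was called under each alternative. SLC16A3 did not pass the filter within the 6 U251T libraries. It was tested without a filter (adjusted p 0.322) and in the single fit (0.0952), and was not called. The lowest depth in U251T was 383633 counts, where HK2 had 6.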
